A study of Homo sapiens with 6 samples.

Results

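DNA mismatch repair corrects base mismatches and small loops that replication leaves behind, and it matters in the colon because tumours that have lost it accumulate length changes in short repeats. In human cells MutS dimers recognise the error, MutL dimers are recruited and nick the new strand, an exonuclease removes the stretch, and replication factors fill and seal the gap. The genes described here are 6 of that pathway, chosen by name from the deposited count table: MSH6 and MSH3 of the MutS family, PMS2, PMS1 and MLH3 of the MutL family, and EXO1, which encodes the exonuclease. All 6 were found among 58735 genes with a name, and all 6 passed the filter on low counts that left 15351 genes to test.

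The cells were LS174T, a human colorectal adenocarcinoma line with a goblet-like phenotype, which is known as a mismatch-repair-deficient line. Poly(A) RNA was sequenced from 3 libraries with the genotype label FXYD3 knockout and from 3 wild-type libraries of the same line, with no treatment named for either. FXYD3 encodes a small membrane protein that regulates the Na,K-ATPase. The labels give neither the kind of edit nor the origin of the replicates (cultures, passages or clones). A p-value here therefore reflects how much 3 libraries varied, which can be technical variation alone.

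Named genes received 15417232 to 19453217 counts in the knockout-labelled libraries and 16507805 to 17596549 in wild type. FXYD3 itself had 79, 131 and 85 counts in the knockout-labelled libraries, against 54, 91 and 55 in wild type. Its transcript was therefore no lower under the knockout label (log2 fold change 0.54, SE 0.20, edgeR adjusted p = 0.0522), and directions given here go by the labels of the libraries. Of 6 goblet and mucus markers none was at 0, and their summed level was 538 to 582 CPM (a gene's counts scaled to library size) in the knockout-labelled libraries and 922 to 1062 CPM in wild type. The leukocyte markers PTPRC, CD3E and CD79A had 0 counts in every library. Fibroblast markers summed to 1.19 to 1.94 CPM in the knockout-labelled libraries and 0.635 to 1.74 CPM in wild type, with COL1A2 at 0, and endothelial markers stayed under both, with PECAM1 at 0. The part of the difference in goblet markers in the values given here was not tested.

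None of the 6 mismatch repair genes passed the test between the groups. In edgeR's quasi-likelihood test 0 of 6 had an adjusted p below 0.05, against 24.3% of all genes tested, 12.0% higher and 12.4% lower; DESeq2 and limma voom also called 0. At an unadjusted p below 0.05 edgeR had 1 of the 6, PMS2, and this share was 34.6% over all genes. The log2 fold changes, knockout-labelled over wild type, were above 0 for 3 genes and below 0 for 3, with a median of -0.01, beside a median of 0.00 for all genes tested. The 95% intervals of the 6 fold changes lay between 0.828-fold and 1.33-fold, so a change of 1.5-fold in either direction lies outside each of them. In RNA from a whole culture, fewer cells that express a gene and less of its RNA per cell cannot be told apart.

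**Figure D1:**
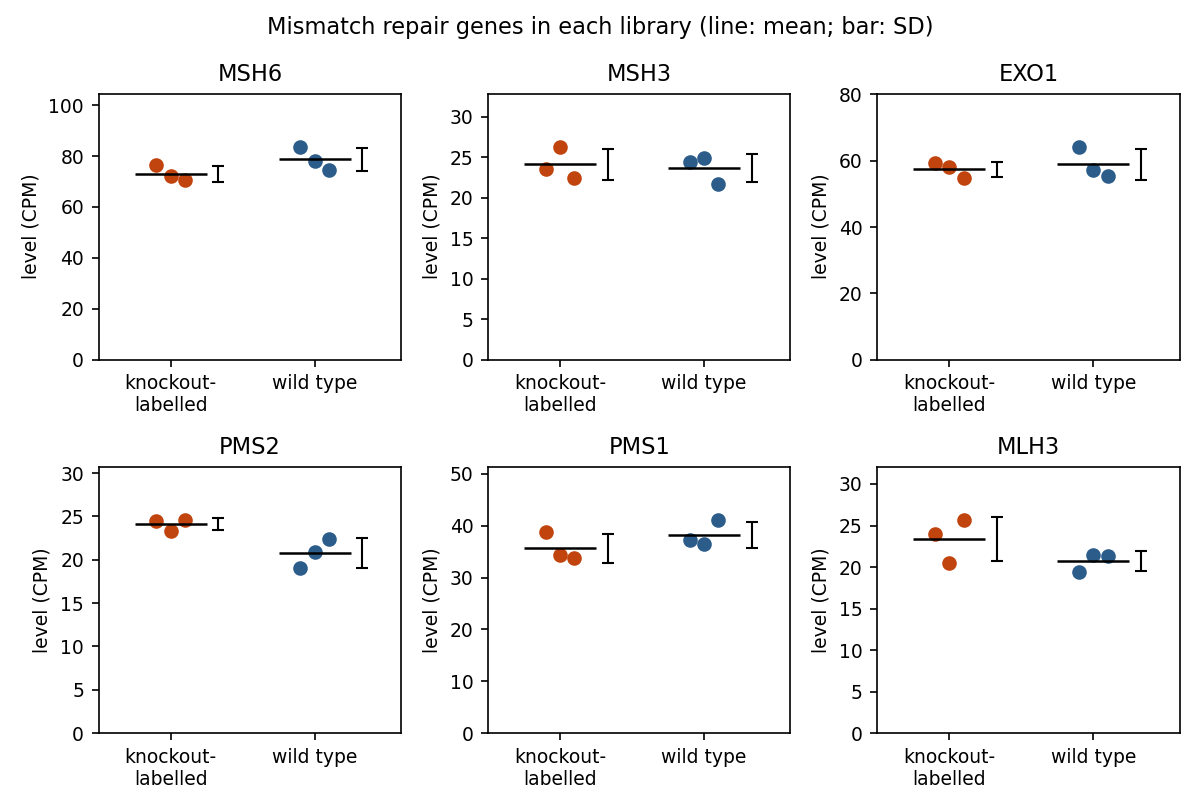
Level of each mismatch repair gene in CPM (vertical axis, from 0) in the 3 knockout-labelled and the 3 wild-type libraries (points), with the group mean (line) and its SD (bar). The groups overlap in 5 of the 6 genes; the exception is PMS2, at 23.3 to 24.6 CPM in knockout-labelled and 19.1 to 22.4 CPM in wild-type libraries.

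Runs of 1 base within coding sequence are the places where mismatch repair is most needed, and each of these genes carries such a run itself. The longest run in the coding sequence of each gene's principal transcript is printed here in capitals, because the runs of MSH3 and MSH6 are known sites of length change in mismatch-repair-deficient tumours. The sequences are reference sequence from GENCODE release 29 on GRCh38, read 5′ to 3′ on the gene's own strand.
MLH3: agagaaagagAAAAAAAAAgaatctagcaa
MSH3: atgttagggacAAAAAAAAgggcaacattt
PMS2: gactggagaagAAAAAAAAgacgtgtccat
MSH6: gccggaagataCCCCCCCCttcttagagct
PMS1: tactcaactgcAAAAAAAtgtaaagatgaa
EXO1: tctcatttctcAAAAAAAgacacacctcta
The run of MLH3, 9 bases in exon 2 (chr14:75047890-75047919, minus strand), was the longest. Runs of 8 bases lie in exon 7 of MSH3 (chr5:80675085-80675114, plus strand), exon 11 of PMS2 (chr7:5987515-5987544, minus strand) and exon 5 of MSH6 (chr2:47803490-47803519, plus strand). PMS1 has 7 bases in exon 5 (chr2:189818073-189818102, plus strand) and EXO1 7 bases in exon 14 (chr1:241881979-241882008, plus strand), and the coding sequence of EXO1 holds 2 runs of that length. Across the 6 coding sequences, runs of 6 bases or more numbered 8 in MLH3, MSH6 and PMS1, 6 in MSH3, 4 in PMS2 and 3 in EXO1. Counts per gene hold no sequence, so whether these runs are intact in LS174T was not tested.

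Of the recognition genes MSH6 had the higher level per length. By gene length it was 1.17 to 1.39 times that of MSH3 in the knockout-labelled libraries and 1.34 to 1.47 times in wild type. By the length of the principal transcript, MSH6 averaged 9.78 and 10.5 CPM per kilobase, knockout-labelled before wild type. MSH3 averaged 5.89 and 5.79, so the size of the ratio depends on the length used. MSH6 (ENSG00000116062; GRCh38 chr2:47695530-47810101, plus strand) encodes the MutS subunit that recognises base mismatches and the smallest loops. It had 76.7, 72.1 and 70.5 CPM in the knockout-labelled libraries and 83.7, 77.9 and 74.6 CPM in wild type. The highest knockout-labelled library lay above the lowest wild-type library, so the groups overlapped. On the log2 scale MSH6 differed by -0.11 (SE 0.07; 95% interval -0.25 to 0.03), which did not pass (edgeR adjusted p = 0.265).

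MSH3 (ENSG00000113318; chr5:80654648-80876460, plus strand) encodes the alternative subunit, which recognises larger insertion and deletion loops. Its levels were 23.6, 26.3 and 22.5 CPM in the knockout-labelled libraries and 24.4, 24.96 and 21.8 CPM in wild type. These values interleave, with means of 24.1 ± 1.97 and 23.7 ± 1.70 CPM (SD, n = 3 each). On the log2 scale the difference was 0.03 (SE 0.09; 95% interval -0.17 to 0.22; edgeR adjusted p = 0.879), and it changed sign when either knockout-labelled library 2 (-0.05) or wild-type library 3 (-0.03) was left out.

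Because MSH6 and MSH3 compete for a common partner, the balance of their counts was taken within each library, where it does not depend on scaling. It was 3.25, 2.74 and 3.13 counts of MSH6 per count of MSH3 in the knockout-labelled libraries, and 3.43, 3.12 and 3.43 in wild type. The groups overlapped, with a difference of -0.13 in mean log2 ratio, knockout-labelled minus wild type. An exact two-sided permutation test gave p = 0.3, and the smallest p that 3 against 3 libraries allow is 0.1.

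PMS2 was the only one of the 6 whose groups did not overlap, a pattern that 37.2% of all tested genes showed, 18.6% with the knockout-labelled libraries higher, as here. PMS2 (ENSG00000122512; chr7:5973239-6009125, minus strand) encodes the MutL subunit whose endonuclease activity nicks the strand under repair. Its levels were 24.5, 23.3 and 24.6 CPM in the knockout-labelled libraries, against 19.1, 20.9 and 22.4 CPM in wild type. On the log2 scale PMS2 differed by 0.21 (SE 0.09; 95% interval 0.02 to 0.41), a 1.16-fold difference. Its unadjusted p was 0.0301 and its adjusted p, by edgeR over all genes, 0.0998, so it did not pass.

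The reads of PMS2 are uncertain, because the table holds 11 pseudogenes derived from it, all on chromosome 7. Of the 100-base windows in the principal PMS2 transcript, 17.4% occur unchanged in a transcript of PMS2CL, the copy with most counts. A stretch of 60 bases of exon 11 of PMS2 (chr7:5987300-5987359, minus strand, GRCh38) and its counterpart in PMS2CL shows how near the copies are, with the single differing base in capitals.
PMS2: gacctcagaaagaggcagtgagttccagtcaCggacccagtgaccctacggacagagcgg
PMS2CL: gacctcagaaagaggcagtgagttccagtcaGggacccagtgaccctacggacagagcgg
The pseudogenes together had 457, 586 and 449 counts in the knockout-labelled libraries and 517, 485 and 420 in wild type. That was 109 to 129% of the PMS2 count in knockout-labelled libraries and 116 to 157% in wild type. Of the 11, 5 could be tested and 0 were called by edgeR; PMS2CL was at 0.15 on the log2 scale (SE 0.11, adjusted p = 0.368). With all of their counts added to PMS2, the log2 fold change of the sum was 0.12 (SE 0.07), with an edgeR adjusted p of 0.219. The treatment of reads that match several places is not stated.

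The other MutL genes did not pass either, and their groups overlapped. PMS1 (ENSG00000064933; chr2:189784085-189877629, plus strand) encodes a MutL subunit with no settled part in repair. It had 38.8, 34.4 and 33.7 CPM in the knockout-labelled libraries and 37.2, 36.5 and 41.0 CPM in wild type, with knockout-labelled library 1 among the wild-type values. PMS1 differed by -0.10 on the log2 scale (SE 0.08; 95% interval -0.27 to 0.07; edgeR adjusted p = 0.409).

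MLH3 (ENSG00000119684; chr14:75013764-75051532, minus strand) encodes the MutL subunit best known from meiotic crossing over. Its levels were 24.0, 20.4 and 25.6 CPM in the knockout-labelled libraries, against 19.4, 21.4 and 21.4 CPM in wild type. Knockout-labelled library 2 lay among the wild-type values while the other two lay above them. MLH3 differed by 0.17 on the log2 scale (SE 0.10; 95% interval -0.04 to 0.37; edgeR adjusted p = 0.241), and without knockout-labelled library 2 it was 0.26 (adjusted p = 0.0898).

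EXO1 (ENSG00000174371; chr1:241847967-241895148, plus strand) encodes the exonuclease that removes the strand carrying the error. It had 59.2, 58.2 and 54.8 CPM in the knockout-labelled libraries and 64.2, 57.1 and 55.5 CPM in wild type. The values interleave, with wild-type library 1 the highest. Its log2 fold change was -0.04 (SE 0.07, 95% interval -0.19 to 0.11; edgeR adjusted p = 0.76), and it was 0.02 without wild-type library 1.

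Per kilobase of gene length, EXO1 stood highest and MLH3 lowest in both groups. EXO1 averaged 13.9 ± 0.551 CPM per kilobase in the knockout-labelled libraries and 14.2 ± 1.12 in wild type (SD, n = 3 each). MSH6 followed with 6.65 ± 0.291 and 7.16 ± 0.416, and PMS1 with 6.53 ± 0.505 and 7.01 ± 0.451 CPM per kilobase, knockout-labelled before wild type. Their ranges overlapped in both groups, so the order of MSH6 and PMS1 is not settled; divided by the length of the principal transcript instead, PMS1 (11.0 and 11.9 CPM per kilobase) stood above MSH6 (9.78 and 10.5). PMS2 came next at 6.13 ± 0.184 CPM per kilobase in knockout-labelled and 5.28 ± 0.430 in wild-type libraries, and MSH3 at 5.12 ± 0.419 and 5.03 ± 0.362. The ranges of PMS2 and PMS1 overlapped in the knockout-labelled libraries, and those of PMS2 and MSH3 in wild type. MLH3 averaged 2.79 ± 0.318 CPM per kilobase in knockout-labelled libraries and 2.48 ± 0.138 in wild type, below every library of the other genes.

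The starts of PMS2 and PMS1 each lie close to that of a protein-coding gene that runs the other way, and the counts of each pair were compared within a library. PMS2 starts 120 bases from AIMP2, a scaffold protein of the tRNA synthetase complex, and PMS1 286 bases from ORMDL1, a regulator of sphingolipid synthesis. AIMP2 was at -0.16 on the log2 scale (SE 0.07, edgeR adjusted p = 0.129) and ORMDL1 at -0.16 (SE 0.08, edgeR adjusted p = 0.185), and neither passed.

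For PMS2 over AIMP2 the ratios of counts were 0.558, 0.570 and 0.593 in knockout-labelled libraries, against 0.403, 0.469 and 0.456 in wild type. The groups did not overlap, and the mean log2 ratio was 0.38 higher in the knockout-labelled libraries. An exact two-sided permutation test gave p = 0.1, the smallest p possible. For PMS1 over ORMDL1 the ratios were 0.979, 0.853 and 1.01 in knockout-labelled libraries and 0.869, 0.908 and 0.948 in wild type. These groups overlapped (exact permutation p = 0.5). Adjusted over 3 ratios, the exact permutation p-values were 0.3 for PMS2 over AIMP2, 0.45 for MSH6 over MSH3 and 0.5 for PMS1 over ORMDL1. The divergent pairs were compared after their values had been seen.

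**Figure D2:**
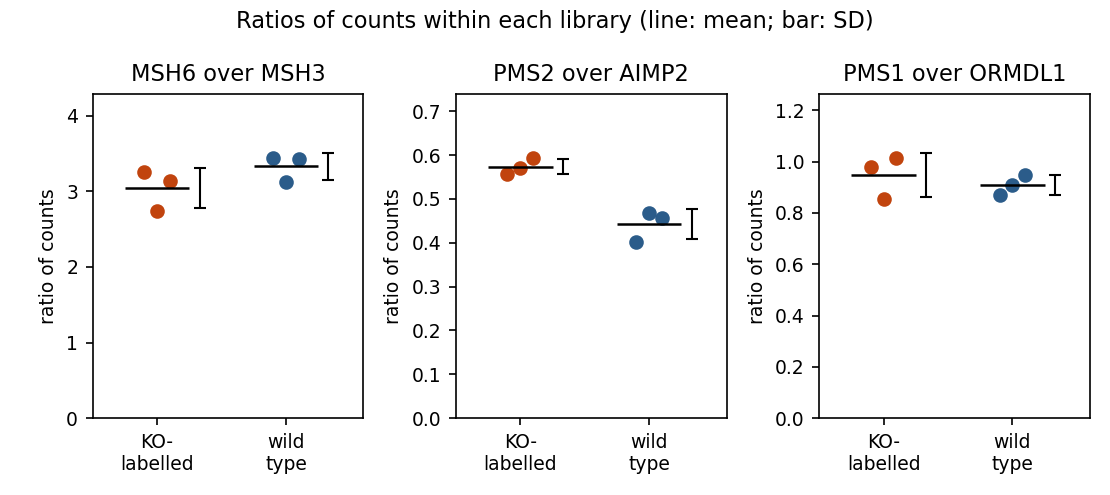
Ratio of the counts of 2 genes within each library (vertical axis, from 0), for knockout-labelled and wild-type libraries (points), with the mean (line) and SD (bar). The ratios of PMS2 to AIMP2 do not overlap between the groups, while those of MSH6 to MSH3 and of PMS1 to ORMDL1 do.

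The promoter region of PMS2 is printed because the ratio of PMS2 to AIMP2 did not overlap between the groups. It is the 250 bases before the RefSeq start of PMS2 (GRCh38.p14; chr7:6009107-6009356, minus strand), read in the direction of PMS2. Capitals mark matches to the words TTTCGCGC, TTTGGCGC, TTTCCCGC and TTTGCCGC on either strand, which are forms of the E2F consensus, the motif of the factors that drive S-phase genes.
PMS2: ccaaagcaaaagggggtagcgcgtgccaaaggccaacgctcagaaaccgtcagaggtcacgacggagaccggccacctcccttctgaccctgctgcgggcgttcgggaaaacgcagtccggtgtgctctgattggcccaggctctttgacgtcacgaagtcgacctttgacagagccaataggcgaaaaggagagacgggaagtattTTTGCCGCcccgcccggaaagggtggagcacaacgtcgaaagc
The match of PMS2 lies 43 bases before its start and is also in the window of AIMP2. The RefSeq start of AIMP2, chr7:6009272, lies within the 250 bases printed, so their first part, as read here, is within AIMP2. With the 50 bases after the start included, EXO1 and MSH6 each hold 1 match just after it, in the windows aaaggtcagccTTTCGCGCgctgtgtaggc (chr1:241848197-241848226, plus strand) and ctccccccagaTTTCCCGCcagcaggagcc (chr2:47783137-47783166, plus strand). With MSH3, which holds 2 overlapping matches, that makes 4 of the 6 genes, against 3.99% of the 27305 genes in the RefSeq table with a match in at least 1 of their windows of the same 300 bases (3.31% of 35116 windows). A match is a description of letters and not a site of binding.

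No strand setting is stated for the counting, so a read from a shared stretch could belong to the gene on either strand. In GENCODE release 29, 103 exon bases of PMS1 (1.89%) are also exon bases of ORMDL1. MSH6 shares 1785 exon bases (16.2%) with FBXO11, a ubiquitin ligase gene on the minus strand. FBXO11 had 19.0 ± 3.16 CPM in knockout-labelled and 17.5 ± 3.12 CPM in wild-type libraries (SD, n = 3 each; log2 fold change 0.12, edgeR adjusted p = 0.55). EXO1 overlaps no other gene of the table.

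**Figure D3:**
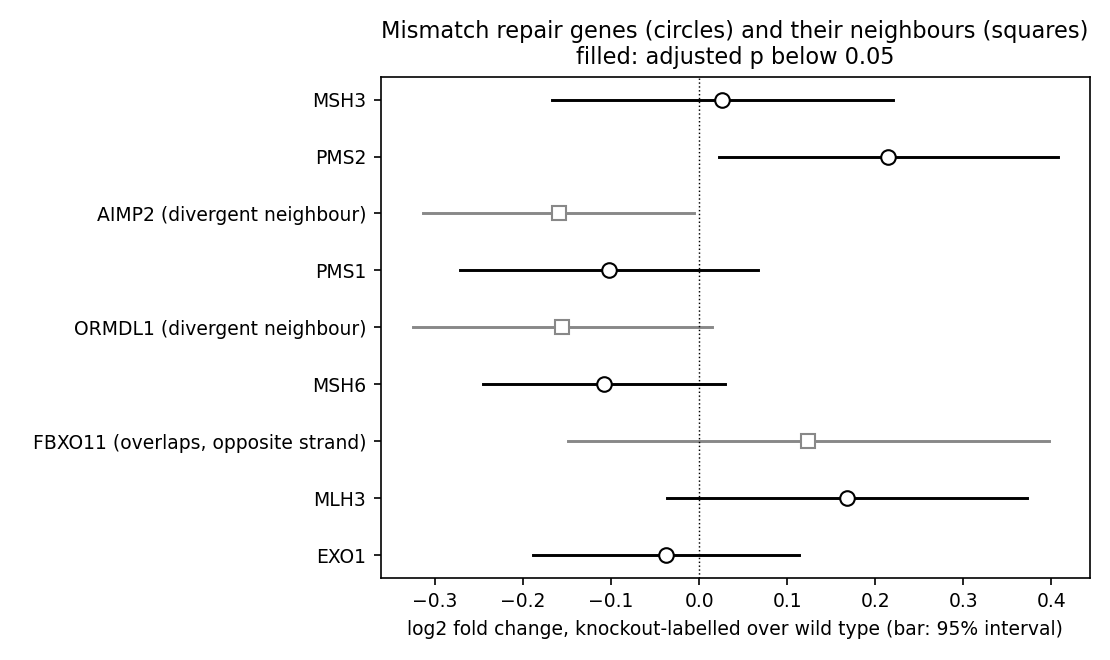
Log2 fold change, knockout-labelled over wild type (horizontal axis), with its 95% interval (bar) for the mismatch repair genes (circles) and for the genes that start beside them or overlap them (squares); a filled mark would have passed an adjusted p of 0.05. No mark is filled, and the interval of PMS2, 0.02 to 0.41, is the only one of the 6 genes that leaves out 0.

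Genes that act after recognition, in excision and resynthesis, fell in part. Of 17 tested genes of this list, 9 were lower in the knockout-labelled libraries and 0 higher, beside 12.4% of all genes called lower. Their median was -0.20 on the log2 scale, beside 0.00 for all genes. PCNA, the sliding clamp that activates MutL, had 339 ± 21.7 CPM in the knockout-labelled libraries and 424 ± 25.1 CPM in wild type (SD, n = 3 each; log2 fold change -0.32, SE 0.06). HMGB1, a chromatin protein that aids excision in reconstituted repair, had 677 ± 23.9 CPM in the knockout-labelled libraries, against 810 ± 34.7 CPM in wild type. The clamp loader genes RFC2 and RFC5 fell by 0.28 and 0.26 on the log2 scale. Without knockout-labelled library 3 the list had 5 genes called lower, and the call of RFC5 was lost without knockout-labelled library 1 (edgeR adjusted p = 0.0511).

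The fall of these genes ran alongside that of other S-phase genes. Of 24 tested replication licensing and G1/S genes, 14 were lower and 0 higher, beside 12.4% and 12.0% of all genes. The median log2 fold change of this list was -0.23, and TK1, E2F2, CDC6 and GINS2 had its smallest p-values. E2F2, a transcription factor of the G1/S step, had 61.6 ± 6.59 CPM in the knockout-labelled libraries and 84.3 ± 2.53 CPM in wild type (SD, n = 3 each). EXO1, whose transcript is also known to be cell-cycle regulated, was at -0.04 with an interval of -0.19 to 0.11, and MKI67, a marker of cycling cells, at -0.01. The part of the cell cycle in these values was not tested.

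Among the other MutS and accessory genes 1 of 6, MSH4, was called higher, beside 12.0% of all genes tested. The other 5 did not pass, and the median log2 fold change over the 6 was 0.10. Without wild-type library 2, 2 of the 6 were called higher. That setting called 4590 genes in all, against 3735 with every library. MSH4 encodes a MutS homologue of meiotic recombination and was low in both groups, with 33, 83 and 69 counts in the knockout-labelled libraries and 28, 24 and 16 in wild type. It differed by 1.41 on the log2 scale (SE 0.29; 95% interval 0.80 to 2.01; edgeR adjusted p = 0.0007), and knockout-labelled library 1 lay close to the highest wild-type library. The other meiotic MutS gene, MSH5, was at -0.06 on the log2 scale (SE 0.18), and FAN1, a nuclease that binds MutL proteins, at 0.12 (SE 0.09).

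**Figure D4:**
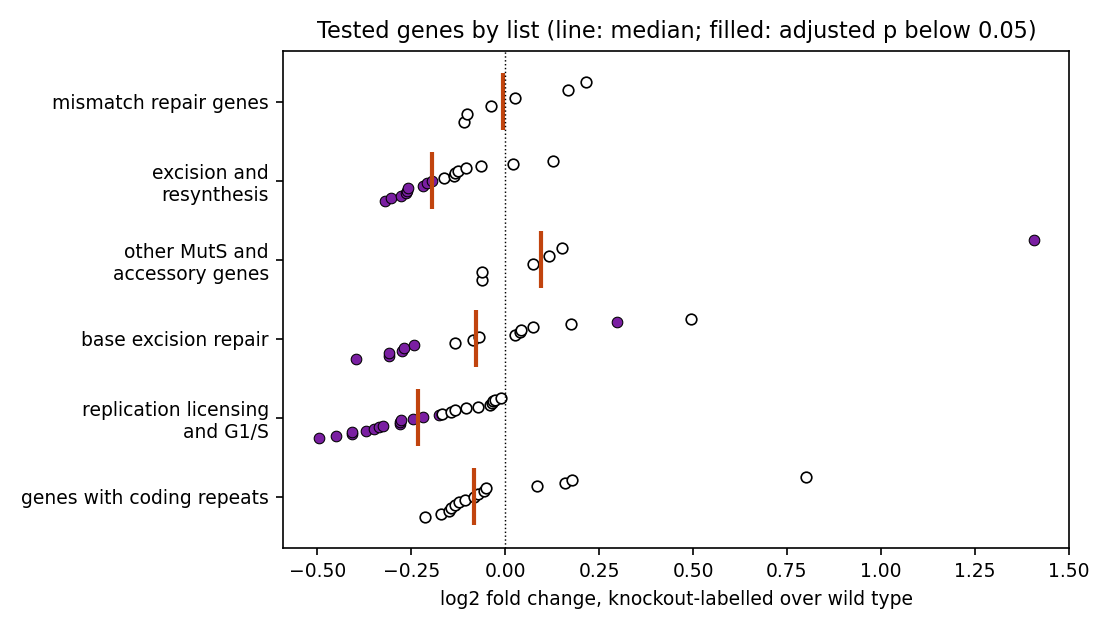
Log2 fold change, knockout-labelled over wild type (horizontal axis), of the tested genes of each list (points, spread vertically for sight), with the list's median (line); filled points passed an adjusted p of 0.05. The 6 mismatch repair genes scatter about 0 with none filled. Below 0, 9 of 17 excision and resynthesis genes and 14 of 24 replication genes are filled. Of all genes tested, 24.3% were called, 12.0% higher and 12.4% lower.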

How the data were processed

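The authors deposited raw counts of reads per gene for 6 libraries, whole numbers with no normalization. HISAT2 2.0.5 and featureCounts 1.5.0-p3 are named in the submitters' processing notes, which list a mouse build (mm10). The identifiers are human: all 58735 named genes are in GENCODE release 29, 58724 of them with the same coordinates, so positions are on GRCh38. For annotation and strand setting the sources used here say nothing. The 232 rows without a gene name (0.13 to 0.25% of counts) were left out.

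Counts were tested with edgeR 4.0.16 in R 4.3.3 (quasi-likelihood, two-sided, TMM, filterByExpr with a minimum count of 10, robust), 3 against 3 libraries without covariates, over 15351 genes, with Benjamini-Hochberg adjustment and a threshold of 0.05. CPM are edgeR's counts scaled by library size and TMM factor. Alternatives were DESeq2 1.42.0, limma 3.58.1 voom, other scalings and filters, leaving out each library, and a block for the replicate number. The testing step was checked on simulated counts. Python 3.11.15 was used for ratios, sequences and plots.

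The 6 genes and the 5 lists were chosen with earlier results of these data known. Genes named from a list are up to 4 called members with the smallest p, or else the most abundant; others were named after their values were seen. No mismatch repair gene was called, so no genes of like pattern are named. The smallest count of a mismatch repair gene in a library was 330, where counting error alone is 5.5%.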

Additional observations from a re-analysis of the deposited data

How the results depend on the processing

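In 13 alternatives each (14 for PMS2, its sum with the pseudogenes included) none of the 6 mismatch repair genes was called, and the lowest adjusted p was 0.0635, for PMS2 without wild-type library 3. Leaving out 1 library gave log2 fold changes of 0.10 to 0.26 for MLH3, -0.045 to 0.076 for MSH3, -0.15 to -0.07 for MSH6, -0.17 to -0.05 for PMS1, 0.15 to 0.27 for PMS2 and -0.083 to 0.024 for EXO1. MSH3 changed sign without knockout-labelled library 2 (-0.045) or wild-type library 3 (-0.03), and EXO1 without wild-type library 1 (0.024). Other scalings, filters and tools changed no sign. The MSH6 to MSH3 difference ranged from -0.18 to -0.06. With lengths of the principal transcript, an alternative chosen after seeing the data, 2 of the 6 genes changed rank. The 13 alternatives called 2710 to 4590 genes in all and 24 to 35 of the list genes.

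Same-numbered libraries did not deviate together (correlations 0.03, -0.10 and -0.12), and not every library correlated best with its own number. With the replicate number as a block 2953 genes were called, and PMS2 had a log2 fold change of 0.22 (edgeR adjusted p = 0.148). Counts of 330 to 1449 per gene and library limit what small differences can show.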

Other observations

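Base excision repair, a parallel route that removes damaged bases, changed in part. Of 16 tested genes, 6 were lower and 1 higher in the knockout-labelled libraries, beside 12.4% and 12.0% of all genes, with a median log2 fold change of -0.08. UNG, the uracil glycosylase, had 91.8 ± 5.09 CPM in the knockout-labelled libraries and 111 ± 2.96 CPM in wild type, and MUTYH, the adenine glycosylase, had 20.4 ± 1.68 CPM in the knockout-labelled libraries, against 27.0 ± 1.89 CPM in wild type (SD, n = 3 each). TDG, the thymine glycosylase, rose to 83.7 ± 6.55 CPM in the knockout-labelled libraries, against 68.0 ± 1.53 CPM in wild type. XRCC1, the scaffold of single-strand break repair, was lower by the test, a call lost without knockout-labelled library 1 (edgeR adjusted p = 0.11). Without that library 2 genes of the list were called lower, and without wild-type library 3 there were 3. Without wild-type library 2, 2 were called higher. MUTYH overlaps TOE1 on the opposite strand, and reads from the shared stretch could belong to either gene.

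Genes with coding repeats that are often altered in mismatch-repair-deficient colorectal tumours had no member that passed the test. By edgeR 0 of 15 tested genes were called, beside 24.3% of all genes tested, and DESeq2 and limma voom also called 0. B2M alone had an unadjusted p below 0.05 by edgeR, beside 34.6% of all genes, and the median log2 fold change was -0.08. B2M, the most abundant and the light chain of HLA class I, had 438 ± 35.9 CPM in the knockout-labelled libraries and 392 ± 32.3 CPM in wild type (SD, n = 3 each; log2 fold change 0.16, edgeR adjusted p = 0.0848). It passed with total counts as the scaling (adjusted p = 0.032), without knockout-labelled library 3 (0.0469) and without wild-type library 3 (0.0158). Leaving out knockout-labelled library 2, or wild-type library 3, gave 1 gene of the list called lower.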
